A study of Mus musculus with 5 samples.

Results

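The genes Il4, Il5 and Il13, which encode the signature type 2 cytokines, lie together on mouse chromosome 11 with Rad50 and Kif3a, and their RNA was followed in 5 single-cell libraries of lung ILC2s. The members were chosen by symbol, so all 5 genes are described whatever their level, among 27726 genes listed in all 5 libraries. They were read in 16530 cells, each with at least 200 detected genes and under 5% mitochondrial counts. All 5 members had UMIs (unique molecular identifiers, each marking an RNA molecule that was captured) in every library.

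ILC2s, group 2 innate lymphoid cells, are lymphocytes without antigen receptors that answer the epithelial alarmins IL-33 and TSLP by secreting IL-5 and IL-13. IL-5 supports eosinophils, IL-13 acts on epithelium, mucus and smooth muscle, and IL-4 drives type 2 polarisation and class switching and is made in larger amounts by T helper 2 cells, basophils and mast cells. In T helper 2 cells the cytokine genes are opened together under GATA3, and the Rad50 gene, which encodes a DNA double-strand break repair protein, carries the locus control region that contacts their promoters. Kif3a encodes a motor subunit of kinesin-2, needed for transport in cilia, and is expressed in many cell types.

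The cells came from wild-type C57BL/6 female mice of 4 to 8 weeks, with 5 mice pooled into each library according to the methods of the study, and were sorted from lung as Lin- ST2+ CD127+ Thy1.2+ CD45+ cells. The naïve library came from mice without tumour and was sequenced without culture. The ta-non-activated (tumour-associated, fresh) libraries came from mice that carried subcutaneous TC1 tumours, a C57BL/6 lung epithelial line transformed with HPV E6/E7 and activated ras, and were taken 2 and 3 weeks after implantation. The ta-activated libraries came from tumour-bearing mice at the same weeks, and their cells were cultured for a week with IL-33 and TSLP, and with IL-2 according to the methods. Each week and status was thus 1 library, so differences between single libraries carry no replicate check, and intervals on UMIs and shares cover counting error only. Culture, time in the dish and IL-2 cannot be told apart in the ta-activated libraries.

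Kept libraries held 1601 to 6389 cells, with a median of 4396 to 16090 UMIs per cell, and any 2 libraries shared at most 8 barcodes. Some libraries stood apart from their labels. The week 2 ta-non-activated library correlated more closely over 9118 genes (Pearson's r of log2 CPM) with the week 2 and week 3 ta-activated libraries, at 0.878 and 0.867, than with the other fresh tumour library, at 0.800. These correlations are over all kept cells. In the week 3 ta-non-activated library 892 of 1601 cells (55.7%) held more UMIs of T-lineage genes than of ILC2 genes, against 0.384% to 3.57% in the other libraries. The T-lineage genes were Cd3d, Cd3e, Cd4, Cd8a, Cd8b1, Themis, Tcf7, Lef1, Rag1, Rag2, Ptcra and Dntt. The ILC2 genes were Gata3, Il1rl1, Rora, Il2ra, Areg and Arg1. Of the T-lineage genes Dntt (982 CPM), Cd3d (679), Tcf7 (456) and Cd3e (339) were highest in that library, and Cd4 and Cd8a were at 0.319 and 2.34 CPM. Levels of the members are given with and without these T-lineage-gated cells where they move a value, and shares and co-detection are given outside the gate. In the naïve library, genes with long introns were higher than elsewhere (Spearman's rho of 0.573 to 0.595 over 6580 to 6708 genes between intron length and the naïve log2 ratio), and its matrix names another software release. The fifth of genes with the longest introns had a median log2 ratio of 1.78 to 2.39 there, and the fifth with the shortest -0.89 to -0.73. The naïve matrix also lists 28831 genes, against 27726 in the others. The parts of intron length and of the gene list in the naïve levels were not tested.

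On GRCm38 the members span 157.728 kb, in the order Kif3a (chr11:53567379-53601967, plus strand), Il4 (chr11:53602982-53618669, minus strand), Il13 (chr11:53631324-53634702, minus strand), Rad50 (chr11:53649519-53707319, minus strand) and Il5 (chr11:53720794-53725106, plus strand). The start sites of Il13 and Il4 are 16.033 kb apart, and those of Il13 and Il5 lie 86.092 kb apart on either side of Rad50. The 250 bases before the RefSeq start site of each cytokine gene (GRCm38.p6) are shown 5′ to 3′ on the strand of the gene. Il4 has 2 RefSeq entries, and the window shown reaches 53618666, inside the gene body given above (to 53618669). Capitals mark a match to the GATA motif, searched on both strands as NGATAN with A or T as the first letter and A or G as the last.
Il4 (chr11:53618666-53618915, minus strand): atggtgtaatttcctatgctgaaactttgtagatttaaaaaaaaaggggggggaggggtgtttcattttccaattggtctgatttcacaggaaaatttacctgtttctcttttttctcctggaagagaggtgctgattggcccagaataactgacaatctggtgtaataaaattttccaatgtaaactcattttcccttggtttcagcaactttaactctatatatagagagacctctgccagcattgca
Il13 (chr11:53634703-53634952, minus strand): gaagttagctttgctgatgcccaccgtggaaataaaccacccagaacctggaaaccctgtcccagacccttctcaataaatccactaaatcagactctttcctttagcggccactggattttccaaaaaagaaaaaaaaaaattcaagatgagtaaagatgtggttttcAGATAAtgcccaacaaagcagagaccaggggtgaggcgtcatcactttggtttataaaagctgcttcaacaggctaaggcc
Il5 (chr11:53720544-53720793, plus strand): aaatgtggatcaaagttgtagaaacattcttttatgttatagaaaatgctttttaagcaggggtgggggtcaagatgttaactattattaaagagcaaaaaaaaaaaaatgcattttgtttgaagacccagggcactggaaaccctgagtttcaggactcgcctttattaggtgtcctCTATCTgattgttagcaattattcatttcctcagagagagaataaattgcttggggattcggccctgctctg
The Il13 window held AGATAA at 81 to 76 bases before the start, and the Il5 window held AGATAG on the opposite strand at 72 to 67 bases before it, printed as CTATCT. The Il4 window held no match to these letters. Of 32851 RefSeq promoter windows of the same length, 26.5% held a GATA match. The core letters of the NFAT motif, GGAAA, occurred 5 times in the Il4 window, 4 times in that of Il13 and 2 times in that of Il5, and 55.6% of all windows held at least 1. The AP-1 letters TGANTCA, found in 6.75% of windows, occurred in none of the 3. Whether these letters bear on the levels of the genes was not tested.

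Il13 had the widest range of the members. Its level, as CPM (UMIs of the gene per 1e6 UMIs of the library), was 55.6 in naïve cells, 8861 and 19.6 in ta-non-activated cells of week 2 and week 3, and 3501 and 4318 in the ta-activated libraries of the same weeks. The week 2 fresh cells thus stood above both cultured libraries and the week 3 fresh cells below the naïve ones, and no 2 of the 5 counting intervals overlapped. Against the naïve library Il13 was 159-fold higher (95% counting interval 152 to 167) in the week 2 fresh library. Il13 and Il5 were the 2 of the 5 members at least 4-fold higher in that comparison, which held for 7.06% of 12769 genes.

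Il5 shared its 2 lowest libraries with Il13 and had a smaller range. Its level was 170.3 CPM in the naïve library, 1224 and 49.0 in the fresh tumour libraries of week 2 and week 3, and 1321 and 928 in the cultured libraries. The 2 cultured libraries lay on either side of the week 2 fresh library, and the other 2 fresh libraries were below all 3 of them. The week 2 fresh library was 7.19-fold (6.99 to 7.39) above the naïve library. Genes with intron lengths like that of Il5 (2776 bases in all) had a median log2 ratio of -1.03 in the naïve library against week 2 fresh cells. Il5 itself was at -2.85, and the part of intron length was not tested.

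Il4 differed in order from its neighbours. Its level was 26.7 CPM in the naïve library, 8.94 and 1.49 in the fresh tumour libraries and 39.1 and 29.7 in the cultured ones. It was thus 2.99-fold lower in the week 2 fresh library than in the naïve one, in the comparison in which Il13 was 159-fold higher. The log2 ratio of naïve to week 2 fresh cells was 1.58 for Il4. Of 1088 genes with like intron lengths the median was -0.46, and the highest 10% began at 1.61. The part of intron length in this fold was not tested. The intervals of the naïve library (25.0 to 28.6 CPM) and the week 3 ta-activated library (28.4 to 31.1 CPM) overlapped, and the others did not. Il13 gave 2.08 UMIs for each UMI of Il4 in the naïve library (interval 1.92 to 2.26), 13.1 in week 3 fresh cells, 89.7 and 145 in the cultured libraries and 991 (885 to 1115) in week 2 fresh cells. As the 3′ counts are not scaled by length, these ratios are compared between libraries and not read as molar amounts.

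**Figure D1:**
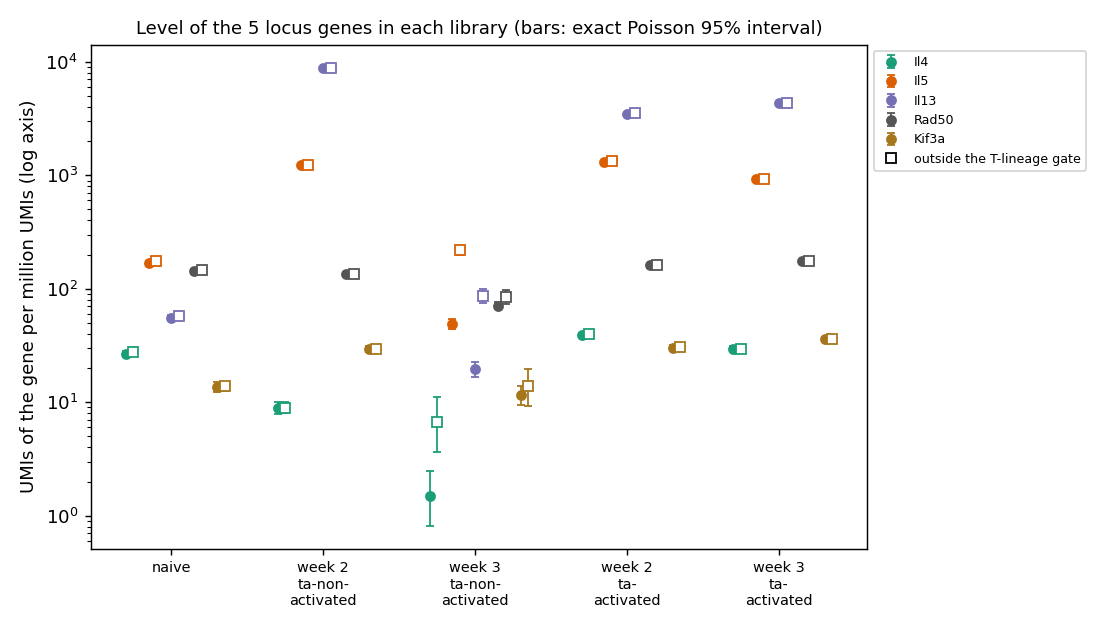
Level of each gene in each library in CPM, on a log axis, with exact Poisson 95% intervals. Filled circles are all kept cells and open squares are cells outside the T-lineage gate. The open squares of the cytokine genes lie above the circles in the week 3 ta-non-activated library (218 against 49.0 for Il5, for example) and close to them elsewhere.

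The low cytokine level of the week 3 fresh library moved with its T-lineage-gated cells. Those 892 cells held no Il4 UMI, 2 Il5 UMIs and 1 Il13 UMI. Outside the gate the 709 remaining cells had 6.66 CPM of Il4 (3.64 to 11.2, from 14 UMIs), 218 CPM of Il5 and 87.0 CPM of Il13. On that basis Il5 and Il13 were 1.24-fold (1.12 to 1.36) and 1.51-fold (1.29 to 1.76) above the naïve cells outside the gate. These intervals count UMIs as independent, though few cells held most of them. Among 617 week 3 cells outside the gate, thinned to equal depth, 23 held 65.8% of Il5 UMIs and 10 held 74.1% of Il13 UMIs. Il5 was detected in 16.4% of them and 15.7% of naïve cells treated alike, and Il13 in 4.54% and 5.03%, with overlapping intervals. Whether the levels differ beyond the sampling of cells was not tested. With the gated cells Il5 and Il13 were 3.48-fold and 2.84-fold below the naïve library, and Il4 was lower either way. Genes with intron lengths like those of Il5 and Il13 had median log2 ratios of -0.81 and -0.75 in the naïve library against week 3 fresh cells, over all kept cells. The part of intron length in these folds was not tested. The gated cells held a median of 6198.5 UMIs and the others 2789. Il13 in week 2 fresh cells was 102-fold (88.3 to 119) above the week 3 cells outside the gate. No count of cells was spiked in, and the CPM alone cannot tell fewer producing cells from less RNA per cell. In fresh cells outside the gate, thinned to equal depth, Il13 was detected in 88.6% in week 2 and 4.54% in week 3. The mean per positive cell was 19.9 and 3.04 Il13 UMIs. Both the share of positive cells and the UMIs per positive cell were thus lower in week 3.

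To compare detection at equal depth, cells with at least 2000 UMIs were thinned to 2000, and cells outside the T-lineage gate are given. Il13 was detected in 5.03% of 5926 naïve cells, 88.6% of 1802 and 4.54% of 617 fresh tumour cells of week 2 and week 3, and 73.1% of 2761 and 86.1% of 3699 cultured cells. The corresponding shares for Il5 were 15.7%, 60.6%, 16.4%, 53.6% and 57.2%, in the same order of libraries. Il5 was therefore the more often detected cytokine in the naïve and week 3 fresh libraries, and Il13 in the other 3. Il4 was detected in 2.63%, 1.61%, 0.810%, 7.21% and 7.68% of cells, and cultured cells had the highest shares. At full depth, where libraries are not comparable, the shares of the same cells were 5.11%, 12.9%, 1.62%, 42.9% and 34.8% for Il4, 27.5%, 86.8%, 20.4%, 84.9% and 88.6% for Il5, and 8.0%, 95.3%, 6.0%, 92.0% and 96.5% for Il13. T-lineage-gated cells were taken as a guide to the background of free RNA, which was not tested. None of the 3 was found in 878 gated cells of the week 3 fresh library (which allows a share of up to 0.342%). That library held only 14, 460 and 184 UMIs of Il4, Il5 and Il13 in all, so little free RNA could be seen there. The week 2 fresh library had only 7 gated cells, with none of the 3 after thinning. At full depth Il13 was in 28.6% of those 7 cells, at 121 CPM (52.4 to 239). In the week 2 cultured library Il4, Il5 and Il13 were found in 1, 2 and 4 of 61 gated cells. At full depth those 61 cells had shares of 8.20%, 13.1% and 26.2%. Of 15 gated cells of the week 3 cultured library 3 held Il13 and none Il4 or Il5, and of 221 gated naïve cells 1 held Il4 and 1 Il5. After thinning, the interval of the Il4 share in the gated week 2 cultured cells (0.0415% to 8.80%) includes the 7.21% found outside the gate. With 61 gated cells the thinned share could not separate them from the others. In CPM, Il4 was at 7.05 (2.59 to 15.3) in those gated cells and 39.5 (37.9 to 41.2) outside the gate, with intervals that did not overlap. Gated cells of the week 2 cultured library had a median of 9916 UMIs before thinning and the others 14100.

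**Figure D2:**
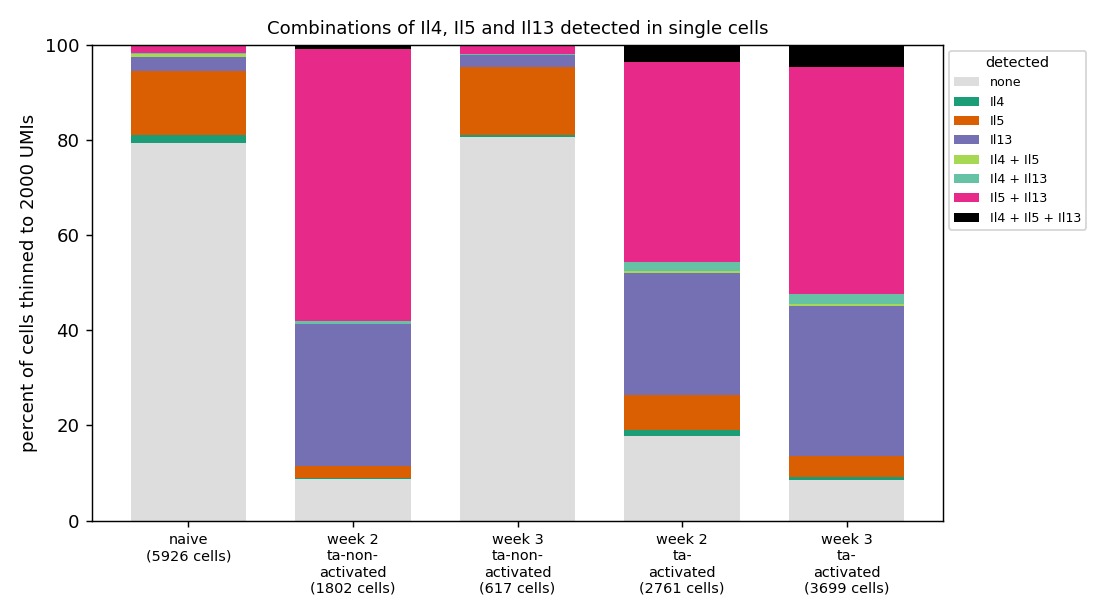
Percent of cells outside the T-lineage gate, thinned to 2000 UMIs, with each combination of Il4, Il5 and Il13 detected, stacked to 100% per library. Cells with Il5 and Il13 but not Il4 make up 57.2%, 42.1% and 47.7% of the week 2 ta-non-activated, week 2 ta-activated and week 3 ta-activated libraries, and cells with none of the 3 make up 79.2% of naïve and 80.6% of week 3 ta-non-activated cells.

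In single cells, Il5 and Il13 were detected together more often than their separate shares would give in all 5 libraries. In naïve cells outside the gate, 101 of 5926 (1.70%) held both, against 0.791% for the product of the 2 shares, and the odds ratio was 2.96. Of the Il5-positive naïve cells 10.8% (8.91 to 13.01) held Il13, and of the Il5-negative cells 3.94% did. The joint shares were 58.1% in week 2 fresh cells (product 53.7%, odds ratio 6.82), 1.94% in week 3 fresh cells (0.743%, 4.21), 45.7% in week 2 cultured cells (39.2%, 4.03) and 52.4% in week 3 cultured cells (49.2%, 2.97). Under the other filters, depths and detection limits tried, the odds ratio stayed between 2.96 and 37.6 in these libraries. These are descriptions over cells of the same library and not tests, and cells of a library are not replicates.

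Il4 was detected with Il13 more often than the separate shares would give in naïve cells, and close to those shares in the 3 libraries rich in Il13. Its odds ratio with Il13 was 4.04 in naïve cells, where 26 of 156 Il4-positive cells (16.7%) and 4.71% of the Il4-negative cells held Il13, and 1.12, 1.11 and 1.29 in week 2 fresh, week 2 cultured and week 3 cultured cells. With Il5 the odds ratios were 1.57, 0.920, 1.17 and 1.44 in the same 4 libraries. The week 3 fresh library had only 5 Il4-positive cells, and 1 of them held Il13. Cells with all 3 cytokines were 6 of 5926 naïve cells (0.101%), 17 of 1802 week 2 fresh cells (0.943%), none of 617 week 3 fresh cells, and 99 (3.59%) and 173 (4.68%) of the cultured cells of week 2 and week 3.

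Cells were also grouped by their Il13 content. In week 2 cultured cells, Il5 was detected in 29.3% of the 744 cells without Il13, 49.96% of those with 1 to 4 Il13 UMIs, 77.0% of those with 5 to 19, and 94.3% of the 194 cells with 20 or more. The Il5 share went from 34.3% to 91.8% over the same classes in week 3 cultured cells and from 21.8% to 85.6% in week 2 fresh cells. Il4 was at 6.72%, 7.49%, 7.40% and 6.70% of week 2 cultured cells over the 4 classes, with intervals that overlapped. In naïve cells the Il4 share was 2.31% (1.93 to 2.74) without Il13 and 8.42% (5.42 to 12.4) with 1 to 4 Il13 UMIs.

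**Figure D3:**
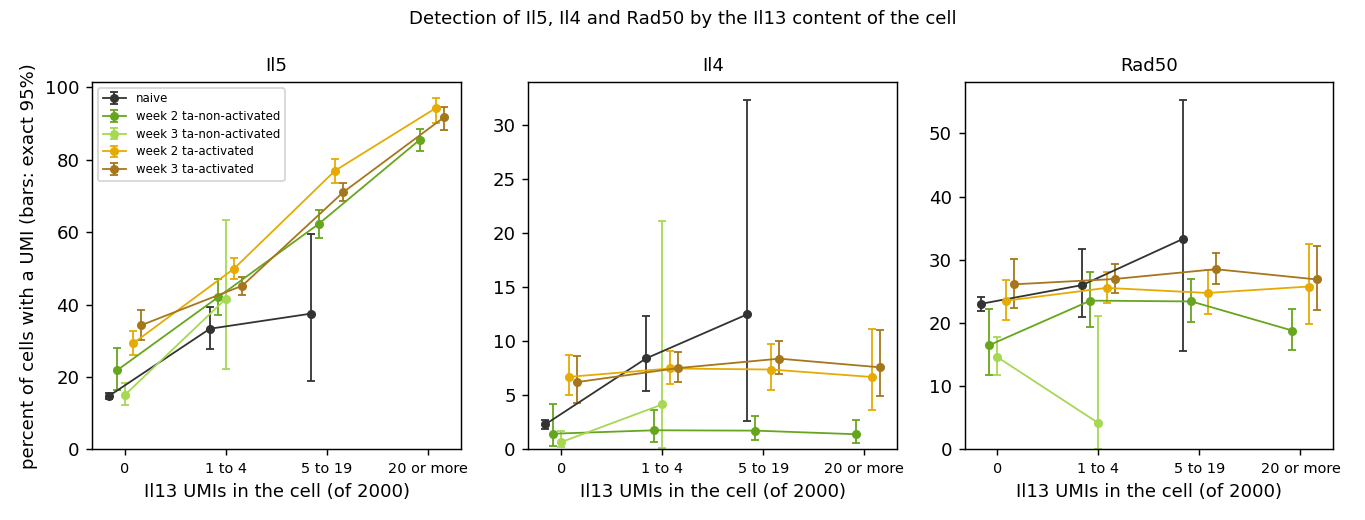
Percent of cells with a UMI of Il5, Il4 or Rad50 against the number of Il13 UMIs in the cell (of 2000), by library, with exact 95% intervals. Classes with under 20 cells are left out. Il5 goes up with Il13 in each library with several classes (29.3% to 94.3% in week 2 ta-activated cells), while Il4 and Rad50 stay within overlapping intervals in week 2 ta-activated cells and Il4 goes up from 2.31% to 8.42% in naïve cells.

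The members also differed in how unevenly their UMIs lay over cells. In the week 2 fresh library the median cell held 48.9 Il13 UMIs per 10000 and the highest 1% of cells over 471, and 98.96% of thinned Il13 UMIs were in cells with 3 or more. If the UMIs of a gene were spread evenly, the share of positive cells would follow from the mean alone. For Il5 this would give 86.8% of week 2 cultured cells, in which 53.6% were positive, and for Il4 7.32%, in which 7.21% were positive. Il4 in week 3 cultured cells (7.77% and 7.68%) and in week 2 fresh cells (1.65% and 1.61%) was likewise close to an even spread. In naïve cells the same gene was concentrated, with 5.08% for an even spread and 2.63% found.

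Much of the Il4 of naïve cells lay in few cells with several UMIs each, though most positive cells held a lone UMI. Of 156 positive naïve cells, 107 held 1 Il4 UMI of 2000 and 26 held 3 or more. These 26 cells held 50.5% of all thinned Il4 UMIs of the library. Genes with intron lengths like that of Il4 (14461 bases in all) had median log2 ratios of -0.46 to -0.36 in the naïve library against the other 4. In the cultured libraries 188 of 199 and 270 of 284 positive cells held a lone UMI, and 0 and 1 cells held 3 or more. The mean per positive cell was 1.98 UMIs in naïve cells, 1.06 and 1.05 in the cultured ones and 1.03 in week 2 fresh cells. Of the mast cell and basophil markers, which identify other Il4-expressing cells, Mcpt4, Tpsb2, Ms4a2 and Mcpt8 were at 0 in the naïve library and Fcer1a was at 0.216 CPM, while Cpa3 was at 28.7 CPM. All 8 markers of the list summed to 30.5 CPM there and from 0 to 121 CPM in the other libraries. Cpa3 was found in 1 of the 26 naïve cells with 3 or more Il4 UMIs (3.85%) and in 4.96% of the 5770 naïve cells without Il4. In the week 2 cultured library Mcpt8 was at 120.6 CPM with Fcer1a and Ms4a2 at 0, and its part in the Il4 level was not tested.

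**Figure D4:**
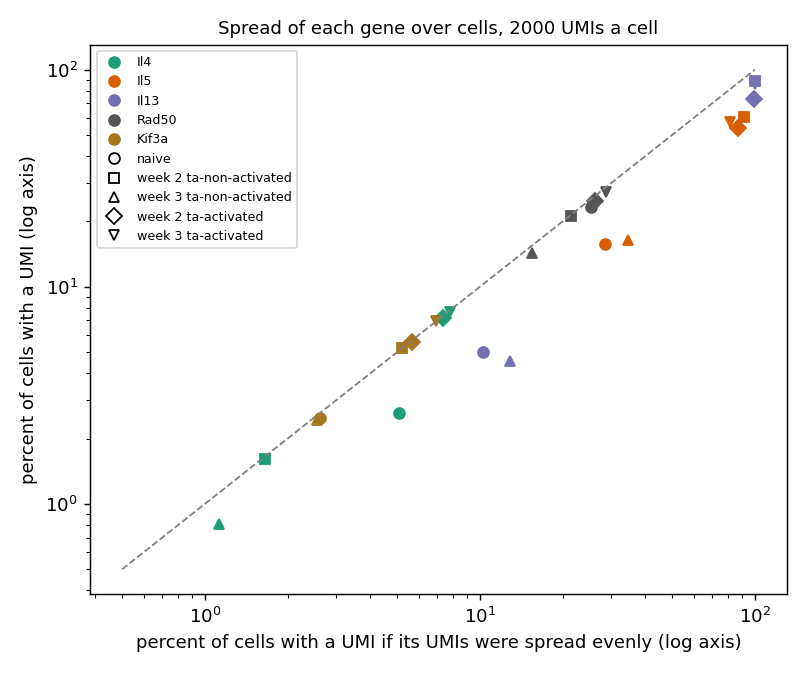
Percent of cells outside the T-lineage gate with a UMI (2000 UMIs a cell) against the percent an even spread of the same UMIs would give, both on log axes, for the 5 genes (colours) in the 5 libraries (symbols). The dashed line marks equality. Rad50, Kif3a and, outside the naïve and week 3 ta-non-activated libraries, Il4 lie close to it, and Il5 and Il13 lie below it (53.6% against 86.8% for Il5 in week 2 ta-activated cells).

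Cells with at least 2 of 12 cell cycle genes detected are called cycling. In the 3 libraries with many of them, cycling cells had lower CPM of Il5 and Il13 and higher CPM of Rad50. In week 2 cultured cells, 661 cycling cells (23.9%) had 1965 CPM of Il13 and the 2100 others 4463 CPM, and Il5 was at 748 and 1680 CPM. In week 3 cultured cells Il13 was at 3280 CPM in 675 cycling cells and 4730 CPM in the others, and Il5 at 602 and 1055 CPM. In week 2 fresh cells Il13 was at 5877 and 9249 CPM, with 121 cycling cells. Rad50, whose product works with Mre11 and Nbn on broken and replicating DNA, was at 196 and 144, 215 and 160, and 192 and 128 CPM in cycling and other cells of these 3 libraries. Il4 had no common direction, at 36.4 and 41.3 CPM in week 2 cultured cells, 22.9 and 32.4 CPM in week 3 cultured cells, and 14.5 (10.9 to 19.02) and 8.27 CPM (7.26 to 9.38) in week 2 fresh cells. In the naïve library, with 37 cycling cells, Il13 was higher in cycling cells (151 CPM, 118 to 191, against 56.6 CPM), while the Il5 intervals overlapped. That Il13 value rests on 72 UMIs, which the interval counts as independent. Yet 78 of 5926 naïve cells outside the gate held 56.1% of thinned Il13 UMIs, so a few cells could make the difference. The cycling cells of the 3 libraries were deeper, with medians of 21702 to 26269 UMIs, against 11583.5 to 15420 in the other cells. As CPM is relative to all UMIs, a lower CPM does not by itself mean fewer UMIs of the gene per cell.

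Rad50 was measured at moderate level in every library and in gated cells too. Its level was 144 CPM in the naïve library, 135 and 71.2 in the fresh tumour libraries and 162 and 175 in the cultured ones, with no overlap between the counting intervals. The week 3 fresh library was lowest, and its T-lineage-gated cells (67.2 CPM) and other cells (85.1 CPM) were both below the rest. The odds ratio of Rad50 with Il5 outside the gate lay between 0.831 and 1.38, on either side of 1. With Il13 it was 1.20, 1.41, 1.10 and 1.08 in naïve, week 2 fresh, week 2 cultured and week 3 cultured cells. In week 3 fresh cells it was 0.450, from only 2 cells with both. Rad50 was in 23.5%, 25.6%, 24.8% and 25.8% of week 2 cultured cells over the 4 Il13 classes. Genes with intron lengths like that of Rad50 (52426 bases in all) were higher in the naïve library by a median of 0.52 to 1.02 on the log2 scale, and the log2 ratio of Rad50 itself was 0.10 and 1.02 against week 2 and week 3 fresh cells and -0.17 and -0.28 against week 2 and week 3 cultured cells.

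Kif3a was low in every library. Its level was 13.6 CPM in the naïve library, 29.5 and 11.6 in the fresh tumour libraries and 30.2 and 35.9 in the cultured ones. The naïve and week 3 fresh intervals overlapped (12.4 to 14.98 and 9.53 to 14.0 CPM), as did those of week 2 fresh and week 2 cultured cells (27.6 to 31.4 and 28.8 to 31.7 CPM). Week 2 fresh cells were 2.16-fold (1.93 to 2.42) above naïve cells, a difference that 17.6% of genes exceeded.

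Beyond the members, 14 protein-coding genes lay within 250 kb of the span, Irf1 having been left out by the rule that set the members, and 5 of them reached 10 CPM in any library. These were Zcchc10, Aff4, Uqcrq, Sept8 and Gm12216. Over all kept cells none of them had the range of Il13 or Il5. Outside the T-lineage gate Il5 ran only from 176 CPM in naïve cells to 1340 CPM in week 2 cultured cells. Levels of the neighbours were not taken outside the gate, so their ranges cannot be set against that of Il5 there. Uqcrq, a subunit of respiratory complex III, was at 158 CPM in the naïve library, 601 and 437 in the fresh tumour libraries and 363 and 400 in the cultured ones. Aff4, a scaffold of the super elongation complex, was at 660 CPM in the naïve library and 85.2 to 188 CPM in the other 4, and genes with introns as long were also higher in the naïve library, by a median log2 ratio of 0.67 to 1.19. Sept8, which encodes a septin and lies 115 kb from the Il13 start, was at 56.3, 29.3, 9.79, 61.4 and 70.5 CPM.

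**Figure D5:**
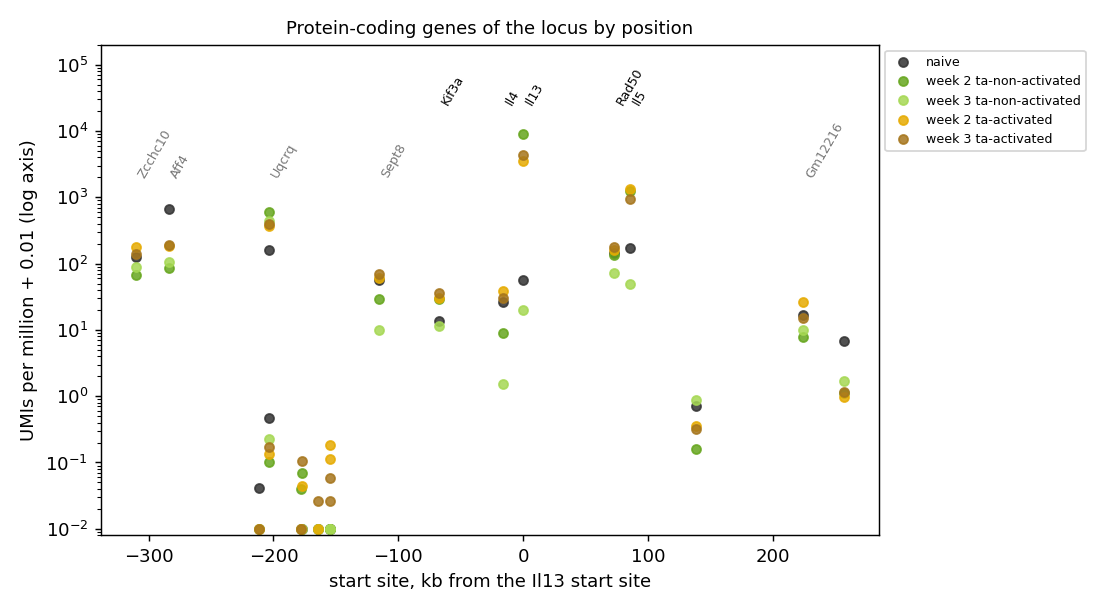
Level of protein-coding genes around the members (CPM plus 0.01, log axis) against the distance of their start sites from that of Il13 in kb, with 1 point per library. Black names are members and grey names are neighbours with 10 CPM or more in any library. Il13 and Il5 reach 8861 and 1321 CPM, and the next highest gene, Aff4, reaches 660 CPM.

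Culture with IL-33 and TSLP was compared between libraries of the same week. In week 3 the cultured cells had 220-fold more Il13 (191 to 256), 19.9-fold more Il4 (11.9 to 36.5) and 18.9-fold more Il5 (17.3 to 20.8), so that 3 of the 5 members were at least 4-fold higher, which held for 11.8% of 12582 genes. Outside the T-lineage gate these folds were 49.7, 4.47 and 4.26. In week 2 Il13 was 2.53-fold lower in cultured than in fresh cells, Il5 was 1.08-fold higher and Il4 was 4.37-fold higher (3.87 to 4.95), and Il4 alone of the members was at least 4-fold higher (11.8% of 12520 genes). Il4 was thus higher in cultured cells in both weeks outside the gate (4.42 and 4.47), whereas the ratios of Il13 and Il5 differed between the weeks. The week 3 ratio of Il4 rests on 14 UMIs in fresh cells (6.66 CPM, 3.64 to 11.2), so likeness in size cannot be read from it.

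Over the 2 ta-activated and 2 ta-non-activated libraries, no difference in a member passed the test. Il13 was at 3910 ± 577 CPM (SD, n = 2) in ta-activated and 4440 ± 6252 CPM (SD, n = 2) in ta-non-activated libraries, so its spread between the 2 fresh libraries was larger than its mean. Il5 was at 1124 ± 278 and 636 ± 831 CPM, Il4 at 34.4 ± 6.61 and 5.21 ± 5.27 CPM, Rad50 at 169 ± 9.66 and 103 ± 45.0 CPM, and Kif3a at 33.0 ± 4.0 and 20.5 ± 12.6 CPM. With edgeR (quasi-likelihood F-test, p adjusted by Benjamini-Hochberg over 12643 genes) the log2 fold change of Il4 was 2.50 (SE 0.95, adjusted p = 0.298). It was 0.60 (SE 1.41, adjusted p = 0.842) for Il5 and -0.42 (SE 2.11, adjusted p = 0.931) for Il13 in the same edgeR fit, and 0.56 and 0.51 for Rad50 and Kif3a (adjusted p = 0.585 and 0.678). With week as a block the Il13 value was 3.104 (adjusted p = 0.797 in edgeR). The test called 0% of all genes, while 2120 genes had an unadjusted p under 0.05 and DESeq2 called 1037. Both ta-activated libraries were above both ta-non-activated ones for Il4, Rad50 and Kif3a, 3 of the 5 members, as for 32.4% of genes, and the groups overlapped for Il5 and Il13.

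The fold changes depended on which ta-non-activated library was kept. Without the week 2 library, edgeR gave log2 fold changes of 4.597 for Il4, 4.59 for Il5, 7.70 for Il13, 1.57 for Kif3a and 1.31 for Rad50. The fresh library that then remains is the one with 55.7% T-lineage-gated cells. With these cells left out too, a fit added after seeing the data, edgeR gave smaller values. They were 5.37 for Il13, 2.26 for Il4, 2.26 for Il5 and 1.14 for Kif3a. When the week 3 fresh library was left out instead, the log2 fold change was -1.43 for Il13 and -0.36 for Il5 in edgeR. In each of these fits 1 fresh library remains and is assumed to vary as the other group does, so only fold changes are given.

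The type 2 pathway list of 49 genes, receptors, signal transducers, transcription factors, other cytokines and feedback genes, had 45 members tested. None of the 45 passed the adjusted threshold in edgeR, 6 had an unadjusted p under 0.05 and were higher in ta-activated libraries and 1 was lower (9.32% and 7.45% of all genes). The median log2 fold change was 0.25 in the list and -0.02 over all genes. Groups did not overlap for 17 of the 45, of which 15 were higher and 2 lower (32.4% and 20.6% of all genes).

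The regulators of the list are given in cells outside the T-lineage gate, since the gated cells moved the values of the week 3 fresh library (Gata3 was at 189 CPM there with them and at 586 CPM without). Gata3, which binds the cytokine genes, was at 803 CPM in the naïve library, 337 and 586 in fresh tumour libraries of week 2 and week 3 and 576 and 899 in cultured ones. Outside the gate the library with most Il13 thus had the lowest Gata3 level. Over all kept cells the week 3 fresh library was lowest, at 189 CPM against 336 CPM in week 2 fresh cells. Gata3, Rora, Il1rl1 and Areg are among the ILC2 genes that set the gate, so the gate itself selects on them. Rora, another ILC2 lineage factor, was at 3059 CPM in the naïve library, 162 and 1101 in the fresh tumour libraries and 204 and 339 in the cultured ones. Its introns add up to 721390 bases, and genes with introns as long were higher in the naïve library by a median log2 ratio of 3.59 to 4.43. Bcl11b, a factor of T cells and ILC2s, was at 276, 75.3, 195, 144 and 183 CPM in the same order. Of the alarmin receptors, Il1rl1, the IL-33 receptor chain used in the sort, was at 817, 56.4, 364, 47.4 and 121 CPM, Crlf2, the TSLP receptor chain, was at 47.2, 41.6, 84.6, 123 and 92.1 CPM, and Il17rb, the IL-25 receptor, was at 56.1, 2.08, 41.4, 0.407 and 0.324 CPM. Crlf2 was thus highest in the cultured libraries and Il17rb was lowest there. Of other cytokines, Il9 was at 12593 CPM in week 2 fresh cells and at 0.0957, 0, 116 and 342 CPM in the naïve, week 3 fresh and cultured libraries. Csf2, encoding GM-CSF, had its highest level in the same library (1435 CPM, against 368 in the naïve and 60.6 to 183 in the other 3), while Areg, encoding amphiregulin, was at 976, 353, 929, 1107 and 600 CPM. Il13 thus shared its highest library with Il9 and Csf2. Areg was lowest there outside the gate, while over all kept cells it was lowest in the week 3 fresh library (237 against 352 CPM).

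Within cells outside the gate, detection of Gata3 went with that of Il13 in 5 of 5 libraries (odds ratios of 1.20 to 1.40) and with that of Il5 in 5 of 5 (1.10 to 1.67). Areg had odds ratios of 1.67 to 3.18 with Il13 and 1.76 to 3.92 with Il5, and Csf2 2.10 to 4.08 and 1.59 to 2.56. Of the 40 genes of the list measured in at least 3 libraries, 7 were above 1 with Il13 in each, 11 with Il5 and 3 (Areg, Icos and Il9) with Il4, which held for 5.1%, 4.84% and 5.3% of all genes so measured. Below 1 in each were Il7r and Maf with Il13, Bcl11b with Il5 and Il2rb with Il4, against 12.2%, 13.5% and 10.3% of all genes. Icos, Il7r, Maf and Il2rb are named after their values were seen. These are descriptions over cells of the same libraries.

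Il13 and Il5 ranked first for each other over all kept cells, T-lineage-gated ones included, by averages that cover unlike sets of libraries. The Pearson correlation of log2(1 + UMIs) in thinned cells, averaged over libraries in which both genes were detected in at least 5% of cells, was 0.564 over 3 libraries (0.508 to 0.601) among 5162 genes compared with Il5. The naïve and week 3 fresh libraries were left out for this pair. Spearman's rho of Il5 and Il13 there was 0.124 and 0.207. Furin, a proprotein convertase, followed for both, with 0.355 for Il13 (3 libraries) and 0.292 for Il5 (5 libraries, lowest 0.146). The next for Il13 were Csf2 (0.305), Il1r2, the decoy receptor of IL-1 (0.293), and Areg (0.287). For Il5 they were Areg (0.271, over 5 libraries), Il1r2 (0.266) and the chemokine gene Cxcl2 (0.219), the last 2 over 2 libraries. Il4 ranked 558th for Il5 and 835th for Il13 (mean r of 0.024 and 0.021 over the 2 cultured libraries), and Rad50 and Kif3a had mean r of at most 0.015 with either. The naïve and fresh tumour libraries were left out for Il4, and in naïve cells outside the gate its odds ratio with Il13 was 4.04. The genes nearest to Il4, Edf1, Gm5127, Gadd45b, Tph1 and Sri, had mean r of only 0.046 to 0.049, too weak to be read in counts this sparse.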

How the data were processed

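ILC2s sorted from mouse lung were sequenced cell by cell in 5 libraries prepared with the 3′ version 3.1 chemistry of 10x Genomics. The authors deposited UMI counts per gene and barcode. The submitters' processing notes name Cell Ranger 3.0.2, Seurat 3 and build GRCm38 for all samples, while the header of the naïve matrix names Cell Ranger 6.0.0. The annotation release was not given in the sources used here, and positions are those of GENCODE M21 (GRCm38), which held 99.7% of the gene identifiers common to all matrices. The naïve matrix lists 28831 genes and the others 27726, and whether their gene models differ was not tested.

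The 27726 genes common to the 5 matrices were used, and a barcode was kept with 200 or more of them detected and a mitochondrial share below 5%. Levels are UMIs per 1e6 UMIs of the kept cells (CPM) with exact Poisson intervals, and folds and ratios of UMIs have exact binomial intervals. Shares and co-detection are over cells thinned without replacement to 2000 UMIs, which left out shallower cells (242 naïve, 14 and 106 ta-non-activated and 73 and 108 ta-activated cells of week 2 and week 3), with exact Clopper-Pearson intervals. All intervals are at 95% and cover counting error only. A floor of 3 counts was used for shares at 0. Cells with more UMIs of the T-lineage than of the ILC2 gate list were gated. No doublet caller was run.

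Counts summed per library were tested between the 2 ta-activated and 2 ta-non-activated libraries with edgeR 4.0.16 (filterByExpr, TMM, quasi-likelihood, threshold 0.05). DESeq2 1.42.0 was the alternative. In simulated counts with 200 genes changed 8-fold, edgeR recovered 100% of them at a dispersion of 0.01 and 56% at 0.26. The common dispersion of the real libraries was 0.263, so large changes can be missed. Nothing in the sources says that libraries of a group were separate experiments beyond their week, so p-values measure the spread between these libraries. The naïve group has 1 library and no test. The cell-wise rank sum test of the study was not used, because cells of a library are not replicates.

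Named genes were the 5 members, the 5 closest genes of each cytokine, neighbours within 250 kb, 9 genes of the pathway list, and markers of mast cells, basophils and T-lineage cells. Other genes named were chosen after their values were seen. Members, gate and lists were chosen with earlier results of these data known.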

Additional observations from a re-analysis of the deposited data

Results flagged for a closer look

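Il13 moved in opposite directions between fresh and cultured cells in the 2 weeks. The log2 ratio of its CPM, ta-activated against ta-non-activated, was -1.34 in week 2 and 7.78 in week 3, with counting intervals that exclude no change in both. With 1 library for each week and status, the difference between the weeks was not tested. In cells outside the T-lineage gate the ratios were -1.32 and 5.63, so the directions were the same without the gated cells. Of the libraries without culture, the week 2 fresh library, with 8861 CPM of Il13, also had the highest correlations with the cultured ones over 9118 genes. These correlations include the T-lineage-gated cells of week 3 and the long-intron genes of the naïve library, whose part was not tested.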

How the results depend on the processing

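The count of genes past the threshold was 0 in the test as designed and under 7 of the 8 alternatives that kept all 4 libraries, including no filter on low counts, all 5 libraries in 1 fit, all barcodes and no T-lineage-gated cells. It was 1037 with DESeq2. Leaving out each library in turn gave 0 to 1646 genes, with 1646 without the week 2 and 513 without the week 3 ta-non-activated library. Over the same fits the log2 fold change ranged from 1.70 to 4.597 for Il4, from -0.36 to 4.59 for Il5, from -1.43 to 7.70 for Il13, from 0.07 to 1.31 for Rad50 and from -0.084 to 1.57 for Kif3a, and the calls of Il4, Il5, Il13 and Kif3a appeared only without the week 2 ta-non-activated library. With T-lineage-gated cells left out as well, a choice made after seeing the data, 212 genes passed without the week 2 and 0 without the week 3 ta-non-activated library, and the log2 fold changes without the first and the second were 2.26 and 1.71 for Il4, 2.26 and -0.35 for Il5, 5.37 and -1.42 for Il13, 0.87 and 0.078 for Rad50, and 1.14 and -0.083 for Kif3a, of which only Il13 without the week 2 library was past the threshold.

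With week as replicate block, 0 genes passed, and Il13 turned to 3.104 (adjusted p = 0.797 in edgeR), with Il4 at 3.04 (adjusted p = 0.359 in edgeR). Week is the time after implantation, and the labels do not say whether fresh and cultured cells of a week came from the same animals. The design without the block was kept. Week 2 minus week 3 did not run together in the 2 groups over all kept cells (Pearson's r = -0.052 over 12643 genes). As 55.7% of week 3 fresh cells were T-lineage-gated, this value cannot show whether the groups shared an effect of week. The cause was not tested for any of these changes. Shares of cells moved beyond their intervals for 17 of 20 values with thinning to 1000 UMIs and 18 of 20 without thinning, as depth alone changes detection, while all odds ratios of Il5 and Il13 stayed above 1. Depth limits Il4 in week 3 fresh cells, which rests on 14 UMIs.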

Other observations

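In naïve cells outside the T-lineage gate, those with 3 or more Il4 UMIs of 2000 were compared with those without Il4 for 13 other genes, picked with no fixed rule. Ccl1, a chemokine gene, was detected in 14 of the 26 cells (53.8%, 33.4 to 73.4) and in 22.7% (21.6 to 23.8) of the 5770 cells without Il4. Areg was in 18 of 26 (69.2%, 48.2 to 85.7) and 42.8%, and Csf2 in 11 of 26 (42.3%, 23.4 to 63.1) and 22.0%. Il5 was in 7 of 26 (26.9%) and 15.5%, with intervals that overlapped, and Il13 in 6 of 26 (23.1%, 8.97 to 43.6) and 4.71% (4.18 to 5.29). The intervals also overlapped for Gata3 (65.4% and 70.1%), Rora (92.3% and 93.2%), Il1rl1 (69.2% and 69.3%), Il2ra (13 of 26 and 47.1%), Calca (11.5% and 17.2%), Cpa3 (3.85% and 4.96%), Cd3e (0 of 26, with an upper bound of 13.2%, and 3.47%) and Mki67 (0 of 26, with the same bound, and 1.02%). The 26 cells had a median of 4949.5 UMIs before thinning and the others 4609. No difference was tested, as all cells came from 1 library.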
